A study of Mus musculus with 8 samples.

Results

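The genes described here are 42 that act in DNA replication and mitosis, read in the livers of male mice recovering from chemical injury. They were chosen by name: a probe was taken where its deposited gene name was one of the 42, the brightest probe stood for the gene, and the gene counted as measured when that probe was well above background on at least 2 of 8 arrays. By this rule 33 of the 42 were measured, among 19919 named features in all that passed the same filter. The mice had been given CCl4 (carbon tetrachloride) or TAA, for which the labels give the abbreviation alone, to induce fibrosis over 5 weeks, and were then kept for 1 or 2 weeks. Strain and age are not given in the sources used here. During that time either miR-29a or a negative control nucleotide (NC) was injected every 3 days. Each combination of agent, week and oligonucleotide was hybridised to 1 array, which gives 8 arrays, with no statement in the labels on whether animals were pooled. No array of an uninjured or uninjected liver was analysed here, so every value below compares injured livers with each other. The p-values measure the spread between single arrays of different combinations.

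A hepatocyte that re-enters the cell cycle after injury passes from a growth-factor signal carried by D-type cyclins to DNA synthesis and then to mitosis. Replication uses the MCM helicase, the PCNA clamp and enzymes that supply deoxynucleotides, whereas mitosis uses cyclin B with CDK1, the Polo and Aurora kinases, kinesins and the anaphase-promoting complex. Replication genes are known as targets of E2F factors, and many mitotic genes as targets of the DREAM and MuvB-FOXM1 complexes, which bind the cell cycle homology region (CHR) with help from CCAAT boxes. In bulk liver, fewer cycling cells and less RNA per cycling cell cannot be told apart, and inflammatory and mesenchymal cells can carry the same transcripts.

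To show what these regulatory sequences look like in the genes compared below, 4 promoters are printed, each 300 bases long, from 250 bases before the annotated start to 50 after it and along the strand of the gene. They come from RefSeq on the build GRCm38.p6, where 34 of the 42 genes matched an entry. They belong to the replication genes Pcna (chr2:132253131-132253430, minus strand) and Mcm5 (chr8:75109259-75109558, plus strand) and to the mitosis genes Plk1 (chr7:122159185-122159484, plus strand) and Cenpe (chr3:135212313-135212612, plus strand). The 2 sets that are compared with each other below are Mcm2 to Mcm7, Pcna, Rrm1 and Rrm2 for replication, and Plk1, Cenpe and Kif20a for mitosis. Pcna and Mcm5 had the lowest p-values for a difference between agents in the change over time among the replication genes with an entry (0.00567 and 0.0545 in limma, unadjusted). Kif20a had no entry, so Plk1 and Cenpe (0.153 and 0.133 in limma) were the only genes of that mitosis set to print. Capitals mark the motifs searched on both strands: the CHR core TTTGAA, the CCAAT box, and the E2F site in the forms TTTCCCGC and TTTGGCGC.
Pcna: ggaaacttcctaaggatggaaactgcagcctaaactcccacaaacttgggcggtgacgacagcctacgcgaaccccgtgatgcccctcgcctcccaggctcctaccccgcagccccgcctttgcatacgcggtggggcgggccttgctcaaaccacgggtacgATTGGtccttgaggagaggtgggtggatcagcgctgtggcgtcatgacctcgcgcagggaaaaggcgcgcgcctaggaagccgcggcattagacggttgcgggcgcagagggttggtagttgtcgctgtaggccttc
Mcm5: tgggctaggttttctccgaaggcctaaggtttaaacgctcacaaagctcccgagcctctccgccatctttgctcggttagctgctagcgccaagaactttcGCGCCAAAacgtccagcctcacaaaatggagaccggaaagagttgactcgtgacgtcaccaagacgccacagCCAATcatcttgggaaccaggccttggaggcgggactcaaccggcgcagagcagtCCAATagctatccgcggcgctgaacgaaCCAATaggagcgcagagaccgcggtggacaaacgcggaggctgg
Plk1: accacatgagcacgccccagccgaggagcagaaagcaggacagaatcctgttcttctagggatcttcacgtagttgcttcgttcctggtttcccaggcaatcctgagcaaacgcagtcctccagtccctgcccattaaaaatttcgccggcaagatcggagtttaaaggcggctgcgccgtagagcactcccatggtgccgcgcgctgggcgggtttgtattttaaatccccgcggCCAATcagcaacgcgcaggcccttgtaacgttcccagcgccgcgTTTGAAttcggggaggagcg
Cenpe: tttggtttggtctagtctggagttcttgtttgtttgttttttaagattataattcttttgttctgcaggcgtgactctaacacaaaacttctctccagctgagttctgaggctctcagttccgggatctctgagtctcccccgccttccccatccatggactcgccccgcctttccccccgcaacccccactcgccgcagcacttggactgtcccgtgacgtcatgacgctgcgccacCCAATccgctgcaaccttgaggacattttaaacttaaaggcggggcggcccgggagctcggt
The Plk1 window held a CCAAT box beginning 14 bases before the start and a CHR core 31 bases into the transcript, Mcm5 held 3 CCAAT boxes and 1 E2F match, and Pcna and Cenpe held 1 CCAAT box each and no other match.

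Among the 19 mitosis genes with an entry, 14 windows (73.7%) held the CHR core, against 2 of 12 windows (16.7%) of the replication and nucleotide-supply genes and 17.9% of all 32851 promoter windows. The motif was thus about as frequent in the replication windows as in promoters at large. CCAAT boxes were found in 15 of 19 mitosis windows (78.9%) and 10 of 12 replication windows (83.3%), against 37.4% of all windows. An E2F match of the form TTTGGCGC was present in 3 of the 12 replication windows (25%), those of Mcm3, Mcm5 and Mcm6, and in 0.514% of all windows. The form TTTCCCGC was present in 2 of 12 (Mcm3 and Mcm7) against 1.07% of all windows, and neither form occurred in the 19 mitosis windows. No motif overlapped another in the 4 windows printed above. These matches describe letters in a window and are not evidence of binding.

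**Figure D1:**
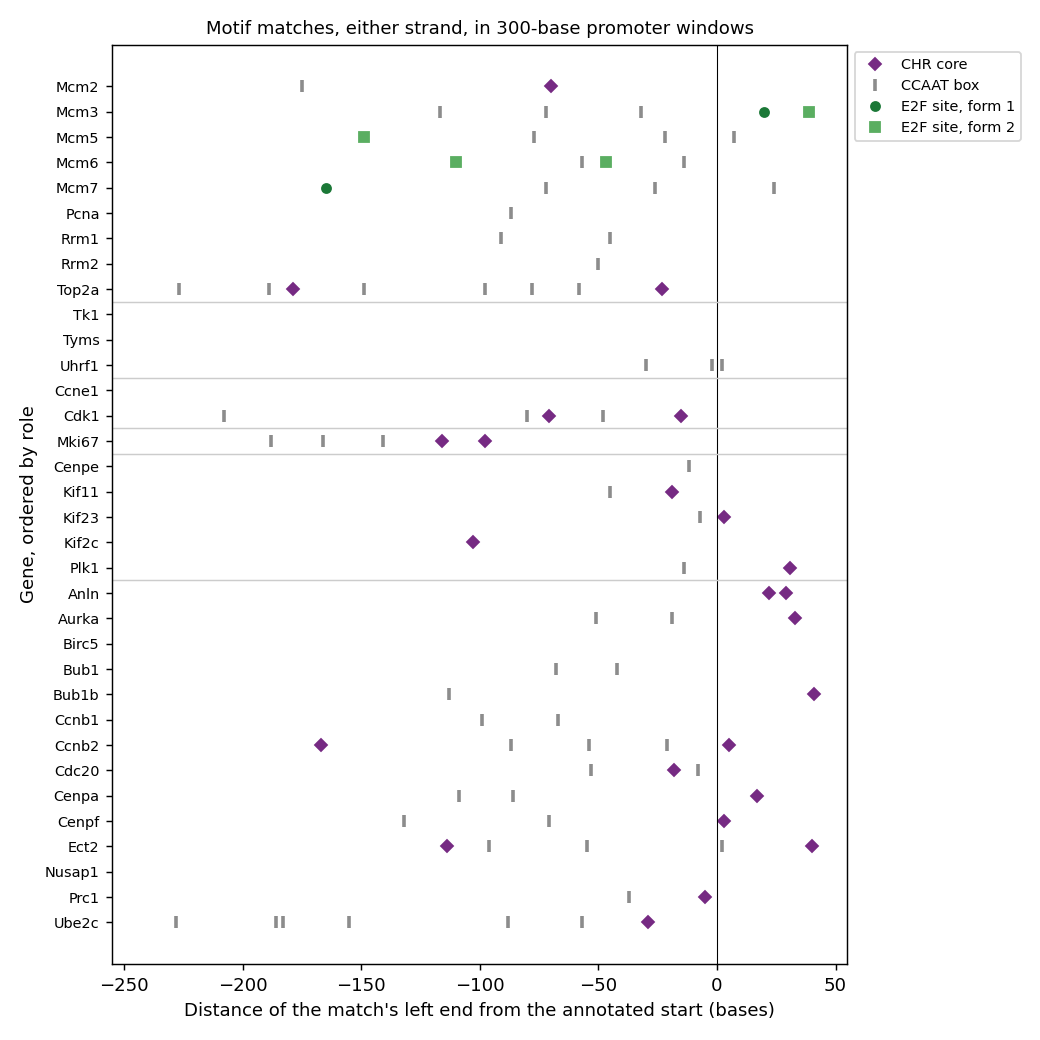
Matches of 4 motifs on either strand in the 300-base promoter windows of the 34 genes with a RefSeq entry. The horizontal axis gives the distance of the match's left end from the annotated start in bases, genes are ordered by role, and grey lines part the roles. CHR cores lie in 14 of 19 mitosis windows and E2F matches only in Mcm3, Mcm5, Mcm6 and Mcm7.

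The injected oligonucleotide bears the name of a small RNA whose mature strand, mmu-miR-29a-3p, is given here with its seed (bases 2 to 8) in capitals, since the seed is what a miRNA pairs with in its targets. It is the RefSeq sequence of the endogenous miRNA, and the chemistry of the injected molecule is not given in the sources used here.
mmu-miR-29a-3p: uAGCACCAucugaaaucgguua

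The 8 arrays were hybridised with one dye on 1 slide, with the CCl4 samples in one slide column and the TAA samples in the other, so that agent and slide column cannot be told apart. Between 43.9% and 48.4% of the probe spots were well above background on an array. Summed signal of 10 hepatocyte markers, relative to the 75th percentile of the array, lay between 6585 and 7095 with CCl4 and between 5829 and 7395 with TAA. The TAA 1-week NC array stood apart: its mean correlation with the others was 0.959, against 0.965 to 0.978 for the rest. The TAA 1-week miR-29a array came next, at 0.965. It had the weakest signal, with a 75th percentile of 136 against 173 to 219 on the others, and the share of 43.9% above. On the TAA 1-week NC array the 6 of 9 neutrophil markers that were measured (Mpo, Ngp and Ltf were not) summed to 323.6, against 8.06 to 12.3 on the other 7 arrays, and the 14 of 15 macrophage markers that were measured (Ly6c2 was not) summed to 287 against 47.1 to 84.8. Over the macrophage list the TAA arrays (up to 287) and the CCl4 arrays (47.1 to 74.6) did not overlap, although the lowest TAA array was only just above the highest CCl4 array. The part of these cells in the results below was not tested.

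The genes that failed the filter were Top2a, Kif11, Kif23, Kif2c, Cenpf, Bub1, Bub1b, Aurkb and Ccne2, 9 in all. Top2a, Kif23, Kif2c and Bub1b were well above background on 1 array, and the other 5 on none. Just inside the filter were Foxm1 and Tpx2 with 4 arrays each, and 25 of the 33 measured genes were well above background on all 8 arrays. No gene passed through TAA arrays alone: each of the 33 had at least 1 CCl4 array well above background. Because 3 of the 4 Kif genes and Top2a failed, the mitosis set that the replication set is compared with consists of Plk1, Cenpe and Kif20a, and the replication set of Mcm2 to Mcm7, Pcna, Rrm1 and Rrm2, which are 9 genes.

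**Figure D2:**
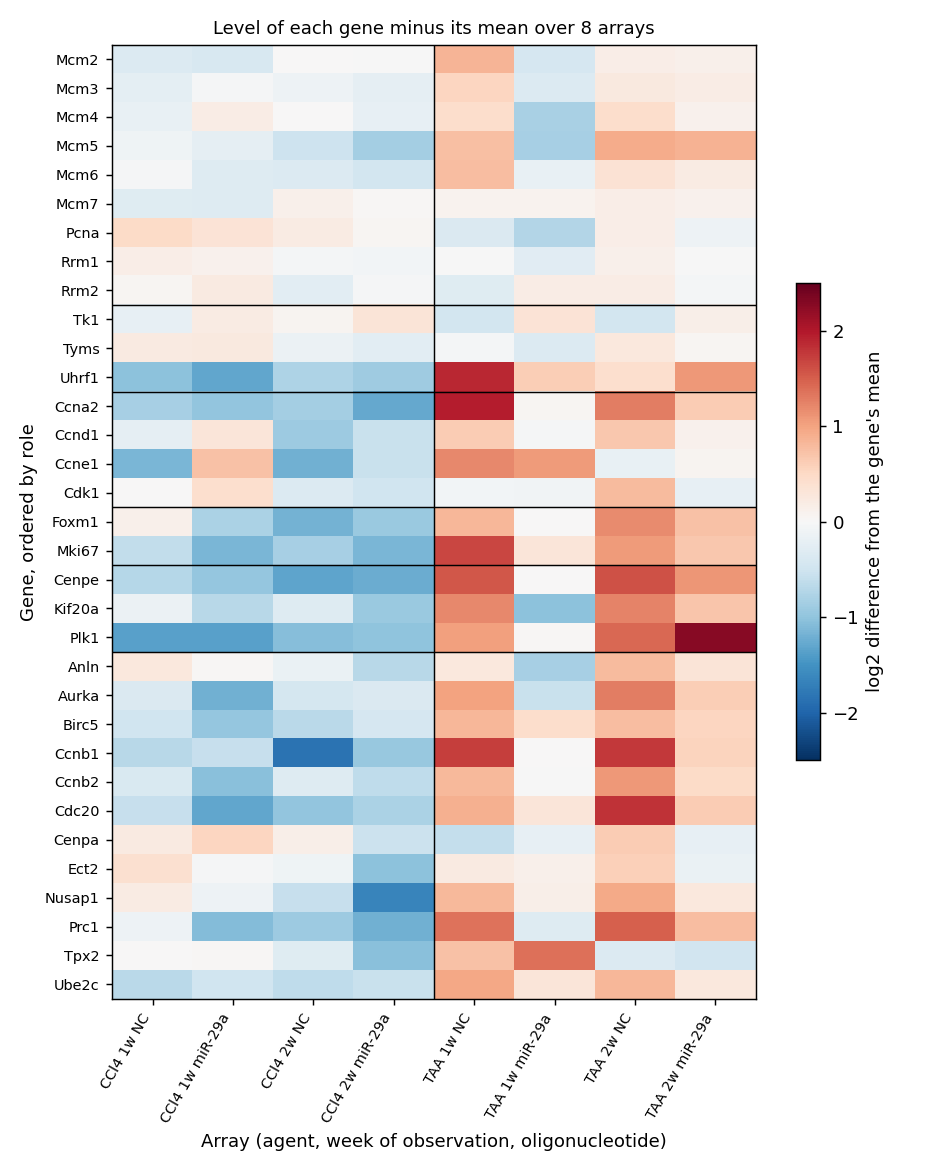
Level of each of the 33 measured genes (rows, ordered by role and parted by lines) on each of the 8 arrays (columns), as the log2 difference from the gene's own mean over the arrays. Red is above and blue below that mean. Most mitosis genes are red on the TAA 1-week NC array and on both TAA 2-week arrays, and 18 of the 33 genes are highest on the TAA 2-week NC array.

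Most mitosis genes had higher levels in TAA than in CCl4 livers, by amounts that did not pass adjustment over both weeks, and most replication genes had smaller differences. Levels are log2 processed signals relative to the 75th percentile of the same array, and differences are on that log2 scale with a standard error from limma. Over all 8 arrays 28 of the 33 genes had a higher mean with TAA and 5 a lower one, with a median difference of 0.86, against -0.11 over all features. After Benjamini-Hochberg adjustment over all 19919 features limma called 0 of the 33 and 0% of all features. At an unadjusted p under 0.05 there were 18 of the 33 (27.4% of all features). Of these 17 were higher with TAA (9.42% of all features) and 1, Pcna, was lower. Among all 19919 features 3576 were lower and 1877 higher at that threshold, so lower was the commoner direction in the series. The groups did not overlap in 10 of the 33 genes, against 22.9% of all features. In all 10 the TAA arrays were the higher, an order found in 1195 of the 19919 features: Plk1, Cenpe, Uhrf1, Ccnb1, Ccnb2, Birc5, Cdc20, Ube2c, Ccna2 and Mki67. With only genes well above background on all 8 arrays it was 8 of 25, and with the TAA 1-week miR-29a array left out it was 20 of 33. Scaling by the array median moved the median of all features to -0.50 and left 20 of the 33 above 0, with a median of 0.47, and 8 without overlap. For these alternatives the share of all features without overlap was not counted. Leaving an array out makes non-overlap easier to reach for any feature, so the rise to 20 is not read as a result about these genes.

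Plk1, the Polo-like kinase that drives mitotic entry and spindle assembly, was at -2.88, -2.88, -2.59 and -2.54 on the CCl4 arrays (1 week NC, 1 week miR-29a, 2 weeks NC, 2 weeks miR-29a). In the same order the TAA arrays were at -0.50, -1.50, -0.085 and 0.75. The groups did not overlap, and the TAA values spread more widely than the CCl4 values. The difference was 2.39 ± 0.35 (SE), a 5.23-fold higher level, at an adjusted p of 0.145 in limma.

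Cenpe, a kinesin of the kinetochore that moves chromosomes to the spindle equator, was at -2.80, -3.05, -3.41 and -3.34 with CCl4 and at -0.54, -2.09, -0.50 and -0.995 with TAA. Its TAA 1-week miR-29a value lay nearest to the CCl4 arrays but above them, and its probe was well above background on neither CCl4 2-week array. Kif20a, a kinesin of the central spindle, was at -2.44, -2.99, -2.60 and -3.22 with CCl4 and at -1.09, -3.30, -1.05 and -1.59 with TAA. Here the TAA 1-week miR-29a array was the lowest of all 8, so the groups overlapped, while the other 3 TAA arrays were above every CCl4 array. The differences were 2.12 ± 0.34 for Cenpe and 1.05 ± 0.37 for Kif20a, with adjusted p-values in limma of 0.145 and 0.156.

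Mki67, the gene of the proliferation antigen Ki-67, had the lowest adjusted p of the 33 in the comparison over both weeks. It was at -0.91, -1.45, -1.12 and -1.45 with CCl4 and at 1.38, 0.013, 0.77 and 0.38 with TAA, without overlap. The difference of 1.87 ± 0.20 corresponds to 3.65-fold and had an adjusted p of 0.087 in limma. Ccnb2, a B-type cyclin, was at -0.90, -1.57, -0.85 and -1.17 with CCl4 and at 0.29, -0.54, 0.55 and -0.058 with TAA. The groups were again apart, and the difference of 1.18 ± 0.13 had an adjusted p of 0.0896 in limma.

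The other B-type cyclin, Ccnb1, differed by 2.03 ± 0.48 and Ccna2, the cyclin of S phase and early mitosis, by 1.96 ± 0.29. Cdc20, an activator of the anaphase-promoting complex, differed by 1.83 ± 0.25, Ube2c, the ubiquitin-conjugating enzyme of that complex, by 1.18 ± 0.18, and Birc5 (survivin, of the chromosomal passenger complex) by 1.28 ± 0.16. Prc1, which bundles microtubules of the central spindle, differed by 1.66 ± 0.31, Aurka by 1.17 ± 0.27, and Nusap1, a microtubule-binding spindle protein, by 1.08 ± 0.30. In Prc1, Aurka and Nusap1, and in Foxm1 below, the TAA 1-week miR-29a array reached into the CCl4 range. Foxm1, the transcription factor of the mitotic gene programme, differed by 1.38 ± 0.33, with its probe well above background on 1 of 4 CCl4 and 3 of 4 TAA arrays. The probe of Ccnb1 was well above background on 2 of the 4 CCl4 arrays.

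Not every mitosis gene followed this order. Cenpa, the centromeric histone, was at -0.40, -0.094, -0.47 and -1.17 with CCl4 and at -1.23, -0.84, 0.012 and -0.82 with TAA, a difference of -0.19 ± 0.35. Anln and Ect2, which act in cytokinesis, differed by 0.28 ± 0.33 and 0.39 ± 0.23, and Cdk1, the mitotic kinase itself, by 0.21 ± 0.31. Each of these differences was smaller than 2 of its standard errors, and under scaling by the array median those of Anln, Ect2 and Cdk1 turned negative, as did that of Cdk1 after quantile normalization. Tpx2, which activates Aurora A, differed by 0.65 ± 0.27 from the probe used here, which was well above background on 4 arrays, and by 2.78 from a dimmer probe well above background on 2. For Mki67, Mcm3 and Ube2c second probes gave 1.77, 0.29 and 1.05, each of the same sign as the probe used.

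**Figure D3:**
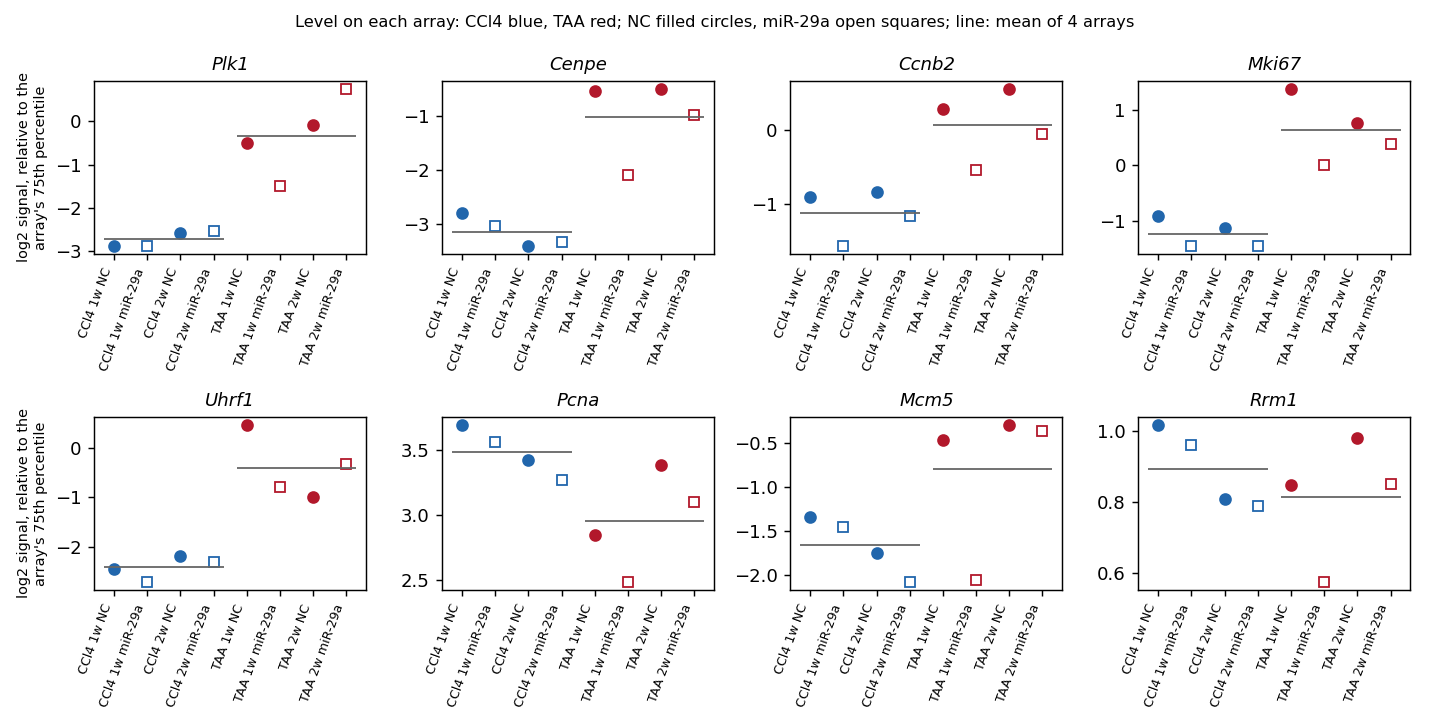
Level of 8 genes on each of the 8 arrays, as log2 signal relative to the array's 75th percentile; each panel has its own vertical range. CCl4 is blue, TAA red, NC filled circles and miR-29a open squares, and each line is the mean of 4 arrays. Plk1, Cenpe, Ccnb2, Mki67 and Uhrf1 have TAA arrays all above CCl4 arrays, whereas Pcna, Mcm5 and Rrm1 have overlapping groups over both weeks.

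In the replication set no gene had groups that did not overlap. Mcm5, a subunit of the replicative helicase, was at -1.34, -1.45, -1.75 and -2.07 with CCl4 and at -0.46, -2.05, -0.29 and -0.36 with TAA. Again 3 TAA arrays were above all CCl4 arrays and the TAA 1-week miR-29a array was not, which gave 0.86 ± 0.40. Mcm6, another helicase subunit, differed by 0.59 ± 0.18. For Mcm2, Mcm3, Mcm4 and Mcm7 the differences lay between 0.094 and 0.37, and all 4 turned negative under scaling by the array median.

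Pcna, the sliding clamp of the replication fork, was the 1 gene lower at an unadjusted p under 0.05 (3576 of all 19919 features). It was at 3.69, 3.56, 3.42 and 3.27 with CCl4 and at 2.85, 2.49, 3.38 and 3.10 with TAA. Both TAA 1-week arrays were below every CCl4 array, and the TAA 2-week arrays lay around the lower end of the CCl4 range. The difference over both weeks was -0.53 ± 0.21. Rrm1 and Rrm2, the subunits of ribonucleotide reductase, differed by -0.081 ± 0.14 and 0.0073 ± 0.17. For both subunits the difference was smaller than its standard error, and the sign was not kept under every scaling: that of Rrm1 turned positive after quantile normalization and that of Rrm2 negative under the array median.

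Among the other genes of nucleotide supply and replication, Tyms (thymidylate synthase) differed by -0.028 ± 0.20 and Tk1 (thymidine kinase) by -0.20 ± 0.15. Uhrf1, which brings the maintenance DNA methyltransferase to newly replicated DNA, stood out from them. It was at -2.45, -2.72, -2.19 and -2.31 with CCl4 and at 0.47, -0.79, -0.99 and -0.33 with TAA. The groups were far apart, and the difference was 2.01 ± 0.34. Of the cyclins of G1, Ccnd1 differed by 0.69 ± 0.29 and Ccne1 by 1.09 ± 0.34.

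The mean difference between TAA and CCl4 was 0.21 over the replication set and 1.85 over the mitosis set, so that replication minus mitosis was -1.65. In the 4 pairs of arrays matched for week and oligonucleotide it was -1.63 (1 week NC), -0.99 (1 week miR-29a), -1.90 (2 weeks NC) and -2.06 (2 weeks miR-29a), the same sign in each. The wider sets, 12 replication and nucleotide-supply genes and 15 mitosis genes, gave -0.90, and normexp background correction -0.67. No p is given for these scores, because their members were chosen with results of these arrays known, and because 3 of the 6 genes named for the mitosis set could not be measured. Between weeks replication minus mitosis was -0.33: under CCl4 the NC pair gave 0.11 and the miR-29a pair -0.087, and under TAA the NC pair gave -0.16 and the miR-29a pair -1.16. Between oligonucleotides it was 0.29, with 0.27 (CCl4 1 week), 0.073 (CCl4 2 weeks), 0.91 (TAA 1 week) and -0.088 (TAA 2 weeks). The values for week and oligonucleotide had no common sign across pairs.

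**Figure D4:**
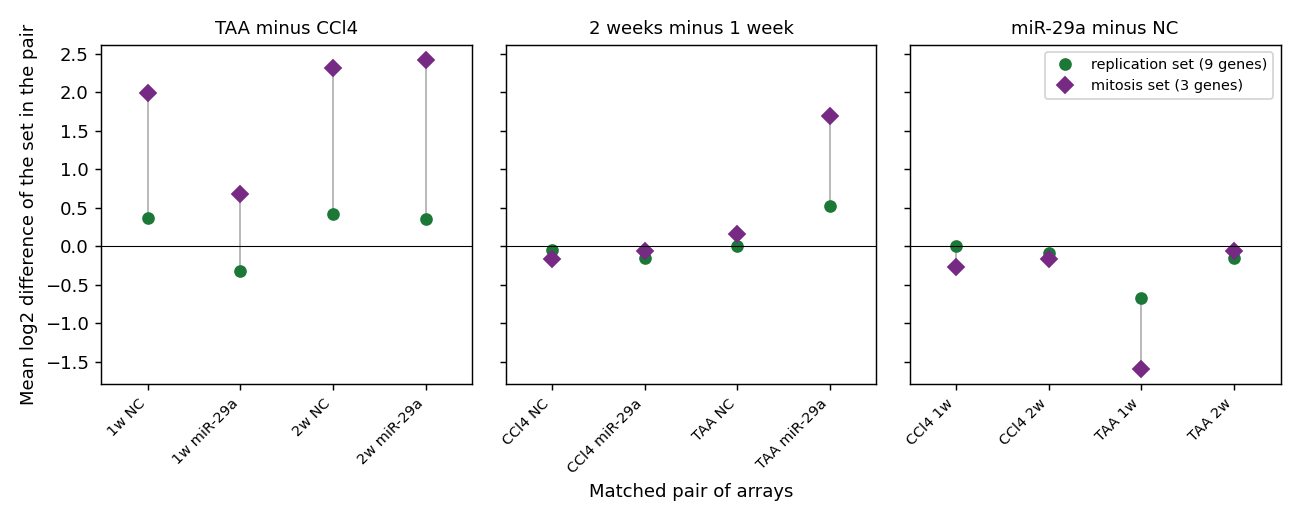
Mean log2 difference of the replication set (9 genes, circles) and the mitosis set (3 genes, diamonds) in each matched pair of arrays, for agent (left), week (middle) and oligonucleotide (right). The grey line joins the sets of one pair. The mitosis set is above the replication set in all 4 pairs for agent, and the pairs for week and oligonucleotide differ among themselves, with the widest gaps in the TAA 1-week pair and the TAA miR-29a pair.

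At 1 week alone, limma with one term for each agent and week called 9 genes higher with TAA, where 12.0% of all features were called higher, and 1 lower, where 20.3% were. The share for the members, 9 of 33, was above that background for higher calls, and 1 of 33 was below it for lower calls. Those higher with TAA were Uhrf1 (2.42 ± 0.45, adjusted p 0.0173), Ccna2 (1.91, 0.0307), Plk1 (1.88 ± 0.43, 0.0293), Mki67 (1.87 ± 0.29, 0.0114), Cenpe (1.61 ± 0.40, 0.0366), Cdc20 (1.54, 0.0256), Birc5 (1.37, 0.0115), Ube2c (1.22, 0.0254) and Ccnb2 (1.11 ± 0.16, 0.0105). Pcna was lower with TAA, at -0.96 ± 0.13 on the log2 scale and an adjusted p of 0.00889 in limma. None of the MCM genes was called in this fit, and they ranged from -0.19 for Mcm4 to 0.59 for Mcm2. Mcm7, at 0.40 (adjusted p 0.0563 in limma), passed in 5 of 18 alternatives. Without the TAA 1-week miR-29a array the differences of Mcm2, Mcm3, Mcm5 and Mcm6 were larger, at 1.20, 0.69, 0.85 and 0.86. Under scaling by the array median, which put the median of all features at -0.73, Mcm2, Mcm3, Mcm5, Mcm6 and Mcm7 turned negative, and Mcm5 did so after quantile normalization too. Cenpa was at -0.79 ± 0.37 (adjusted p 0.161). Calls moved when single arrays were left out, among the members and among all features, of which 2396 were called higher with all 8 arrays. Without the TAA 1-week NC array, 6 of the 33 were called higher and 2110 of all features. Without the TAA 1-week miR-29a array there were 15 and 2420. Without the CCl4 1-week NC array there were 1 and 1080, and with the miR-29a array of that agent and week left out 1 and 477. Leaving out either CCl4 2-week array left 5 and 1543. Over 18 alternatives the calls of Birc5 and Pcna held in 17, those of Mki67 and Uhrf1 in 16 and that of Ccnb2 in 15. Those of Cdc20, Plk1, Ccna2 and Ube2c held in 12, 11, 10 and 9, and that of Cenpe in 7 of the 17 in which it could be tested. Scaling by the array median gave 5 higher and 7 lower, with Anln, Cenpa, Rrm1, Rrm2, Tk1 and Tyms joining Pcna, while over all features it moved the share of higher among called features from 37.2% to 10.4%.

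At 2 weeks the median fitted difference was larger than at 1 week (1.13 against 0.52) and none was called. In 9 of the 33 genes, Uhrf1 among them (2.42 at 1 week and 1.59 at 2 weeks), the difference taken with its sign was lower at 2 weeks. limma called 0 of the 33 and 0.0753% of all features. At an unadjusted p under 0.05 there were 21 higher, against 3.59% of all features, and 0 lower, against 7.13%. Both TAA arrays were above both CCl4 arrays in 26 of the 33 genes, against 18.9% of all features. Plk1 differed by 2.89 ± 0.43 (adjusted p 0.276), Prc1 by 2.19 ± 0.33 (0.291), Cdc20 by 2.12 ± 0.33 (0.299), Nusap1 by 1.72 ± 0.21 (0.183) and Mcm5 by 1.59 ± 0.41 (0.464). For Cenpe, Ccnb1 and Foxm1 neither CCl4 2-week array was well above background, so only bounds can be given, against the array's lowest signal well above background or the probe's own signal where that was higher. They were at least 6.17-fold, 4.85-fold and 2.87-fold higher with TAA. Of the replication set only Mcm5 and Mcm6 (0.70 ± 0.24) passed an unadjusted p of 0.05, and Pcna was at -0.10 ± 0.13.

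Whether the agents differed in how the genes moved from 1 to 2 weeks was tested as an interaction. limma called 0 of the 33, against 7.38% of all features. At an unadjusted p under 0.05 there were 5 above 0 (16.2% of all features) and 0 below (12.6%), so neither share was above that of all features. The 33 had a median interaction of 0.57, with 24 above 0 and 9 below, where a positive value means a change from 1 to 2 weeks that is more upward with TAA. The closest to the threshold was Pcna at 0.86 ± 0.19 (adjusted p 0.0586 in limma), followed by Nusap1 at 1.28 ± 0.29 (0.0642), Anln at 1.42 ± 0.33 (0.0661) and Tyms at 0.79 ± 0.20 (0.0754), whose probe was well above background on neither TAA 1-week array. Nusap1 was at -2.65, -2.97, -3.42 and -4.51 with CCl4 and at -2.03, -2.71, -1.89 and -2.59 with TAA, so that only the CCl4 arrays were lower at 2 weeks than at 1. Pcna passed in 5 of 18 alternatives, among which its adjusted p lay between 0.0199 and 0.23. The other three each passed under the array median, and Anln also without the TAA 1-week NC array. Without that array Kif20a and Mcm5 passed as well (adjusted p 0.0425 in limma), with 0.81 and 0.424 as their highest over all alternatives. Under TAA alone Pcna differed between weeks by 0.57 ± 0.13 (0.0923), and under CCl4 by -0.28 ± 0.13 (0.355).

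Between weeks over both agents 18 of the 33 were higher at 2 weeks and 15 lower, with a median of 0.026, against 0.028 over all features. limma called 0 of the 33 and 0% of all features. At an unadjusted p under 0.05 none was higher, against 2.79% of all features, and Tpx2 and Ccne1 (-0.93 ± 0.34) were lower, against 2.62%. Tpx2 was at -3.07, -3.05, -3.40 and -4.13 with CCl4 and at -2.36, -1.71, -3.43 and -3.56 with TAA, so all 1-week arrays were above all 2-week arrays, as in 1.38% of all features. That probe was well above background on the 1-week arrays of either agent and on no 2-week array, so only a bound can be given, at least 1.78-fold lower at 2 weeks. The dimmer Tpx2 probe did not keep this order. With TAA it was at -1.86 and -3.37 at 1 week and at -2.25 and -3.32 at 2 weeks (NC, miR-29a). Within the agents the medians of the 33 were -0.22 under CCl4 and 0.20 under TAA, and limma called 0 of the 33 in either, against 0.0653% of all features higher and 0.0351% lower under CCl4 and 0.251% under TAA. At an unadjusted p under 0.05 there were 4 of 33 with either agent, against 17.8% of all features under CCl4 and 25.3% under TAA. Under CCl4 they were Nusap1 (-1.15 ± 0.21), Ect2 (-0.75 ± 0.23), Tyms (-0.44 ± 0.14) and Mcm7 (0.40 ± 0.12). Under TAA they were Plk1 (1.34 ± 0.43), Anln (0.85 ± 0.23), Pcna (0.57 ± 0.13) and Tpx2. For Tpx2 the bound, from the probe used here alone, is at least 2.43-fold lower at 2 weeks. Nusap1 was well above background on 1 of the CCl4 2-week arrays and Anln on 1 of the TAA 1-week arrays.

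With miR-29a most of these genes were lower than with the control nucleotide, by amounts that did not pass adjustment. The mean was lower in 30 of the 33, with a median of -0.35, against 0.029 over all features. limma called 0 of the 33 and 0% of all features, and every adjusted p was 1. At an unadjusted p under 0.05 there were 6 lower, against 1.21% of all features, and 1 higher, against 1.74%. In 13 genes all 4 matched pairs were lower, against 5.66% of all features: Mcm2, Mcm5, Mcm6, Pcna, Rrm1, Kif20a, Ccnb2, Prc1, Nusap1, Anln, Ect2, Ccna2 and Mki67. The count takes no account of size, and larger differences are given below. In the CCl4 1-week, CCl4 2-week and TAA 2-week pairs Mcm2 differed by only -0.072, -0.033 and -0.044. In the same order Rrm1 differed by -0.056, -0.021 and -0.13.

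Kif20a differed between miR-29a and NC by -0.54 (CCl4 1 week), -0.62 (CCl4 2 weeks), -2.21 (TAA 1 week) and -0.54 (TAA 2 weeks), with a mean of -0.98 ± 0.37. Its probe was well above background on all 4 NC arrays but on only 2 of 4 miR-29a arrays. The CCl4 2-week and TAA 1-week miR-29a arrays were the others, so the sizes in those pairs and the mean are limited by detection. Prc1 differed by -0.94, -0.30, -1.67 and -0.73 in the same order, with a mean of -0.91 ± 0.31. Ccnb2 had more even differences, -0.67, -0.32, -0.83 and -0.61, and a mean of -0.61 ± 0.13. All of these pairs were below 0, and in all 3 genes the TAA 1-week pair was the lowest. Means of -0.79 ± 0.29 for Ccna2, -0.74 ± 0.27 for Aurka and -0.65 ± 0.20 for Mki67 were the others at an unadjusted p under 0.05.

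Tk1, thymidine kinase of the salvage pathway, went the other way. It was at 2.90, 3.18, 2.65 and 2.65 on the NC arrays (CCl4 1 week, CCl4 2 weeks, TAA 1 week, TAA 2 weeks) and at 3.31, 3.43, 3.45 and 3.25 on the miR-29a arrays. Every miR-29a array was above every NC array, where 1.06% of all features showed this, and the difference was 0.51 ± 0.15 at an adjusted p of 1 in limma. Ccne1 (0.66 ± 0.34) and Rrm2 (0.16 ± 0.17) were the other two above 0, and both had a pair below 0. Plk1 had a mean of -0.027 ± 0.35, made of 0.0014, 0.050, -0.999 and 0.84 in the 4 pairs. A second detected Tk1 probe also gave a positive difference, 0.39.

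The pairs were unequal. The median over the 33 was -0.11 in both the CCl4 1-week and the CCl4 2-week pair, -0.82 in the TAA 1-week pair and -0.39 in the TAA 2-week pair. Over 2-fold lower were 0, 1, 12 and 3 of the 33, against 2.59%, 1.67%, 6.79% and 1.91% of all features. The TAA 1-week pair holds the NC array with the high neutrophil and macrophage signal, whose neutrophil sum was 323.6 against 8.06 on its miR-29a partner. That partner was the array with the lowest 75th percentile of signal. The part of either trait in these differences was not tested. Without that NC array the median over the 33 was -0.30 and 28 were lower, without the TAA 1-week miR-29a array the median was -0.18, and without both TAA 1-week arrays -0.19 with 26 lower.

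**Figure D5:**
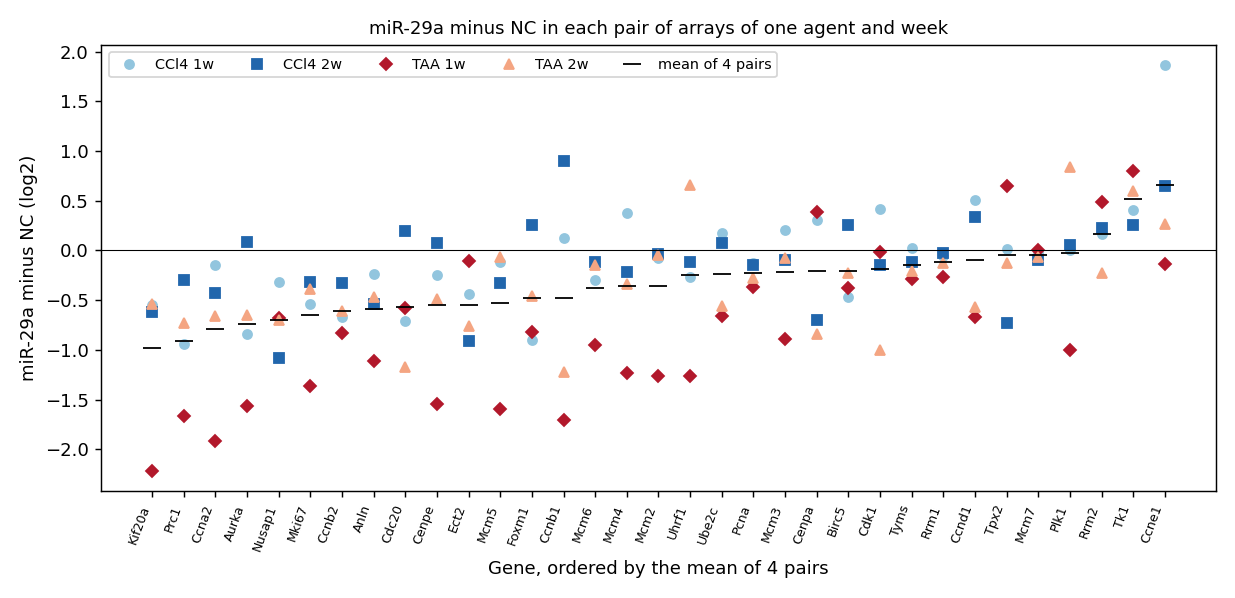
Difference between miR-29a and NC (log2, vertical axis) for each of the 33 measured genes in the 4 pairs of arrays matched for agent and week, ordered by the mean of the pairs (dash). The TAA 1-week pair (diamonds) lies lowest for many genes, Kif20a is below 0 in all 4 pairs, and Tk1 is above 0 in all 4.

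Other genes of the same processes gave a background for the members. In a list of 54 further spindle, kinetochore, checkpoint and cytokinesis genes 30 were measured. Of them 20 had a higher and 10 a lower mean with TAA, with a median of 0.43. At an unadjusted p under 0.05, 14 were higher (9.42% of all features) and 1 lower (3576 of all 19919 features). At 1 week limma called 8 of these higher, against 12.0% of all features, and 3 lower, against 20.3%. Of 41 further genes of origin licensing and the replication fork 34 were measured, with a median of -0.11. At an unadjusted p under 0.05, 2 were higher and 4 lower, both below the same shares of all features. At 1 week 1 was called higher and 4 lower, both below the shares of all features called at that week. Of 43 regulators of the cycle (kinase control, E2F and DREAM) 40 were measured, with a median of -0.15, and 4 were called higher and 4 lower at 1 week, again both below those shares. The replication list thus had a median equal to that of all features, and the spindle list one above it. Genes of these lists that passed the filter through TAA arrays alone were not counted. Mastl of the spindle list and Cdkn3 of the regulators were such genes, so counts of genes higher with TAA in those lists depend in part on the filter. For miR-29a 25 of the 30 spindle genes were lower on average, with a median of -0.26, and 21 of the 34 replication genes, with a median of -0.026.

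The largest agent differences in the spindle list were those of Cep55, a protein of the midbody (2.76 ± 0.74, well above background on 1 of 4 CCl4 arrays), Mastl, the Greatwall kinase, and Sgol1, which protects centromeric cohesion (1.33 ± 0.20). Cep55 was at 1.77 and 0.14 on the TAA NC arrays of 1 and 2 weeks and at -2.55 and -3.12 on the miR-29a arrays, against -3.34 to -4.04 with CCl4. Mastl was at -0.90 and -0.043 on the TAA 1-week arrays and between -4.42 and -5.64 on the other 6, where it was not well above background, so that it was at least 1.91-fold higher with TAA. Both genes were therefore high on a pair of TAA arrays only, in Cep55 those of the control nucleotide and in Mastl those of 1 week. For miR-29a the spindle genes that differed most were Cep55 (-2.04 ± 0.74), Aspm (-1.13 ± 0.52) and Cenpm (-0.87 ± 0.53), and between weeks Mastl (at least 1.54-fold lower at 2 weeks), Nek2 (0.80 ± 0.34) and Cep55 (-0.75 ± 0.74).

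In the replication list the genes named between agents were Gmnn, the inhibitor of origin licensing (-0.68 ± 0.27), and Chaf1a of the chromatin assembly factor (0.64 ± 0.21). Between oligonucleotides they were Mcm10 (0.62 ± 0.16) and Cdc45 (0.53 ± 0.13), and between weeks Rfc3 (0.60 ± 0.44) and Mcm8 (0.40 ± 0.41). Mcm8 was well above background on only 1 array of each week, so the size of its difference is limited by detection. Among the regulators Cdkn1a, which encodes the kinase inhibitor p21, was higher with TAA on every array, at -0.52, -1.51, -0.80 and -1.003 against -2.30, -3.38, -1.85 and -2.64. Its difference of 1.58 ± 0.20 had an adjusted p of 0.134 in limma, and Pkmyt1, an inhibitory kinase of CDK1, differed by 1.21 ± 0.17. Cdkn3, well above background on no CCl4 array, was at least 1.30-fold higher with TAA on average (unadjusted p 0.0777 in limma). Its groups overlapped, with the TAA 1-week miR-29a array at -4.95 and the CCl4 arrays between -3.57 and -4.75. Wee1, another inhibitory kinase of CDK1, differed most between weeks (-1.01 ± 0.29), before Cdkn2b (0.76 ± 0.50) and E2f8 (-0.75 ± 0.51). It also differed most between oligonucleotides (1.21 ± 0.29), before Cdkn3 (-0.95 ± 0.47) and Cdkn1a (-0.76 ± 0.20). No gene of the 3 lists was called over both weeks.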

How the data were processed

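Total RNA of 8 frozen livers was labelled with Cy3 and hybridised to one-colour Agilent arrays, 1 for each combination of agent, week and oligonucleotide, grouped by their labels. The deposited intensity values are those that Agilent Feature Extraction 10.10.1.1 wrote for each spot, per the file headers, together with processed signals corrected for background and marks for outliers and for detection above background. A log2 matrix deposited by the authors equalled the log2 processed signal minus 1 constant per array within 0.01 for 99.76% to 99.83% of 55657 probes on each array, and was used as an alternative. Its making is not described in the sources used here. Depth has no equal here: the number of arrays limits the precision.

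Control spots and spots marked as outliers were left out, repeated spots were averaged per probe, and each log2 signal was taken relative to the 75th percentile of its array. A probe stayed in when 2 or more of 8 arrays had it well above background, with the brightest probe for each deposited gene name, which gave 19919 features. The fits used limma 3.58.1 under R 4.3.3, after reading by the package data.table, version 1.17.8, with agent, week and oligonucleotide as additive terms, or with the 4 agent by week combinations plus oligonucleotide, and adjusted by the Benjamini-Hochberg method over all features at 0.05. The fit was tested on simulated data. The members, the pathway and cell type lists and the tests were chosen with earlier results of these data known. All 42 members were named, and of each pathway list the 3 genes with the largest difference for each factor, except 1 gene that is not reported here. The promoters printed were those with the lowest p for the interaction in the replication set, and those of the measured mitosis set that had an entry. Alternatives changed background correction, scaling, filter, probe choice, variance model, member sets and arrays.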

Additional observations from a re-analysis of the deposited data

How the results depend on the processing

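Over both weeks, for week and for miR-29a against NC, limma called 0 of the 33 genes in each alternative tried. The labels number no replicates across groups, and the pairing of NC with miR-29a arrays rests on their shared agent and week; with the agent by week combination as a replicate block, miR-29a against NC still gave 0 calls. With normexp background correction (offset 50) replication minus mitosis between agents was -0.67 and its interaction 0.0027. With that correction limma called 14 genes higher with TAA at 1 week, against 3082 of all features. In the interaction it called 1, against 2123 features above 0 and 1292 below. Between weeks under TAA it called 2, against 1753 features higher and 828 lower. Scaling by the array median gave 4 calls in the interaction, against 2304 features above 0 and 497 below. It gave 5 higher at 1 week, against 1216 of all features. Without a filter on dim probes 5 genes were called at 1 week, 4 of them higher, against 1752 features higher and 2129 lower. Probes well above background on at least 4 arrays gave 1 call in the interaction, against 1022 features above 0 and 796 below. Probes well above background on all 8 arrays gave 1 call there, against 1367 and 835. With the latter, replication minus mitosis was -2.18 between agents and -0.20 between oligonucleotides, where Plk1 alone is left of the mitosis set. A variance trend with intensity gave 1 call in the interaction, against 1539 features above 0 and 947 below. It gave 1 between weeks under TAA, against 879 features higher and 358 lower. The wider sets gave -0.90 between agents, and Top2a, not measured, changed nothing when left out.

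Leaving out 1 array at a time gave 0 to 3 calls in the interaction (3 without the TAA 1-week NC array), 1 to 16 calls at 1 week, of which 1 to 15 were higher, and 10 to 20 genes without overlap that were higher with TAA. At 1 week 1 was called without the CCl4 1-week miR-29a array, 2 when the CCl4 1-week NC array was left out and 16 when the TAA miR-29a array of that week was. In addition, 2 alternatives were chosen after seeing the data. Without both TAA 1-week arrays 20 genes had no overlap, and comparisons that need those arrays could not be fitted. Groups with fewer arrays are apart more easily, and no share of all features without overlap was counted for any alternative. The other scaled each array by the median of the features that passed the filter. The causes of these changes were not tested. Of 33 genes, 8 were not well above background on every array, which limits what their levels on those arrays can show.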
